A study of Mus musculus with 5 samples.

Results

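The genes described here are 31 genes of the Ras and MAPK pathway. They were split into 15 components that pass on or end the signal and 16 genes grouped as its feedback and targets. Whether the signal induces each of the 16 in these cells was not tested. All 31 genes were chosen by name, not by a cut on measured values, but with earlier results of these data already known. On the array, a gene was read through probe sets whose annotation gives that symbol alone, and the probe set with the highest mean over the 5 arrays stood for the gene. In this way 29 of the 31 had a value, among 18193 genes in all: 13 of 15 components and 16 of 16 feedback and target genes. The expression of Hras and Mapk3 was not analysed here.

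The study placed RNA from bone marrow stem and progenitor cells of C57BL/6 mice on Affymetrix mouse expression arrays. The groups were MSI2-inducible mice (2 arrays), which carry a transgene for the RNA-binding protein Musashi 2, and control rtTA mice (3 arrays), which carry the tetracycline-controlled transactivator. The labels used here do not say which promoter drives rtTA, whether the MSI2-inducible mice carry it too, whether doxycycline was given, or how old the mice were. Sample labels give the sorted cells as low for lineage markers and positive for Sca1 and Kit, while the series text gives them as negative for Sca1, so the gate is uncertain, and the Sca1 gene Ly6a was not analysed here. Nothing in the labels says that arrays of a group came from different animals. The p-values below therefore reflect array-to-array spread, part of which may be technical.

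Ras proteins are small GTPases that link receptors such as Kit and Flt3 to a chain of kinases: Raf activates MEK, and MEK activates ERK, the last MAP kinase of the chain. Exchange factors load Ras with GTP, and GTPase activating proteins switch it off. Active ERK induces genes within minutes, among them phosphatases and Sprouty proteins that damp the same pathway, so feedback genes are widely read as a measure of recent signalling. In blood stem and progenitor cells the pathway passes on cytokine signals for survival and division, and its mutation is common in myeloid leukaemia.

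All values are log2 intensities, and all differences are MSI2-inducible minus control rtTA. Intensities of different probe sets are not compared with each other, since each probe set binds its target with its own strength. The median of all probe sets was 5.57, and the size of a difference is uncertain for genes below it. Array medians lay at 46.4 and 48.3 intensity units for MSI2-inducible and between 47.8 and 48.3 for control rtTA. Pearson correlations over all genes were 0.976 between the MSI2-inducible arrays, and 0.979 to 0.989 among control arrays. MSI2-inducible replicate 1 stood apart from the other arrays, with a score of -56.5 on the first principal component (41.8% of the variance) against 5.35 for MSI2-inducible replicate 2 and 2.87 to 37.3 for the control arrays. For the members, results that lean on that array are therefore also given without it. Of 11 markers of stem and progenitor cells, 9 were measured, with 2 above 0 and 7 below and a median difference of -0.09. Kit lay at 8.80 and 9.50 in MSI2-inducible arrays and between 9.19 and 9.66 in control arrays. Slamf1 and Mecom, both markers of stem cells, lay lower without overlap, by -1.27 (unadjusted limma p 0.0426, adjusted p 0.883) and -0.58 (unadjusted limma p 0.0240, adjusted p 0.870). Of all genes, 9.39% lay lower without overlap. Slamf1 lay at 5.57 and 7.22 against 7.36, 7.99 and 7.66 in control arrays, so MSI2-inducible replicate 1 was far lower than replicate 2.

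No Ras or MAPK gene passed the test between the genotypes, and the members that differed most were all feedback and target genes. Their values lay higher in MSI2-inducible cells, while the components differed little in either direction. Over 16 feedback and target genes the median difference was 0.41, with 11 above 0 and 5 below (50.4% of all genes were above 0). Over 13 components it was 0.04, with 8 above 0 and 5 below, and over all 18193 genes it was 0.00. At a limma p under 0.05 after Benjamini-Hochberg adjustment over all genes, 0 of 29 members passed, against 0.022% of all genes. The smallest adjusted p was 0.179, for Phlda1.

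Below that threshold the feedback genes and the components parted. An unadjusted limma p under 0.05 was reached by 4 of 16 feedback and target genes, Phlda1, Ier3, Dusp2 and Dusp1, all higher, and by 0 of 13 components. Among all genes 2.87% reached it as higher and 2.77% as lower. Both MSI2-inducible arrays lay above every control array for 6 of 16 feedback and target genes and 1 of 13 components, against 9.27% of all genes. Both lay below for 1 feedback gene, Dusp7, and 0 components, against 9.39% of all genes. Of the 6 higher feedback genes, Dusp6 was separated only by 9.82 in MSI2-inducible replicate 2 against 9.8199 in control replicate 1. Spry4 lay below 5.57 on all 5 arrays. Without MSI2-inducible replicate 2, 6 feedback genes and 1 component were higher at an unadjusted limma p under 0.05, against 6.78% of all genes. Without MSI2-inducible replicate 1, 3 feedback genes and 0 components were, against 2.57%. Without control replicate 2, 5 feedback genes were higher, against 2.55% of all genes, and 2, Spred1 and Spred2, were lower, against 2.77%. Phlda1, Ier3 and Dusp2 stayed under an unadjusted p of 0.05 whichever of the 5 arrays was left out, while Dusp1 did so only without control replicate 2. The difference between the gene classes was not tested, because members are not replicates of a condition.

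**Figure D1:**
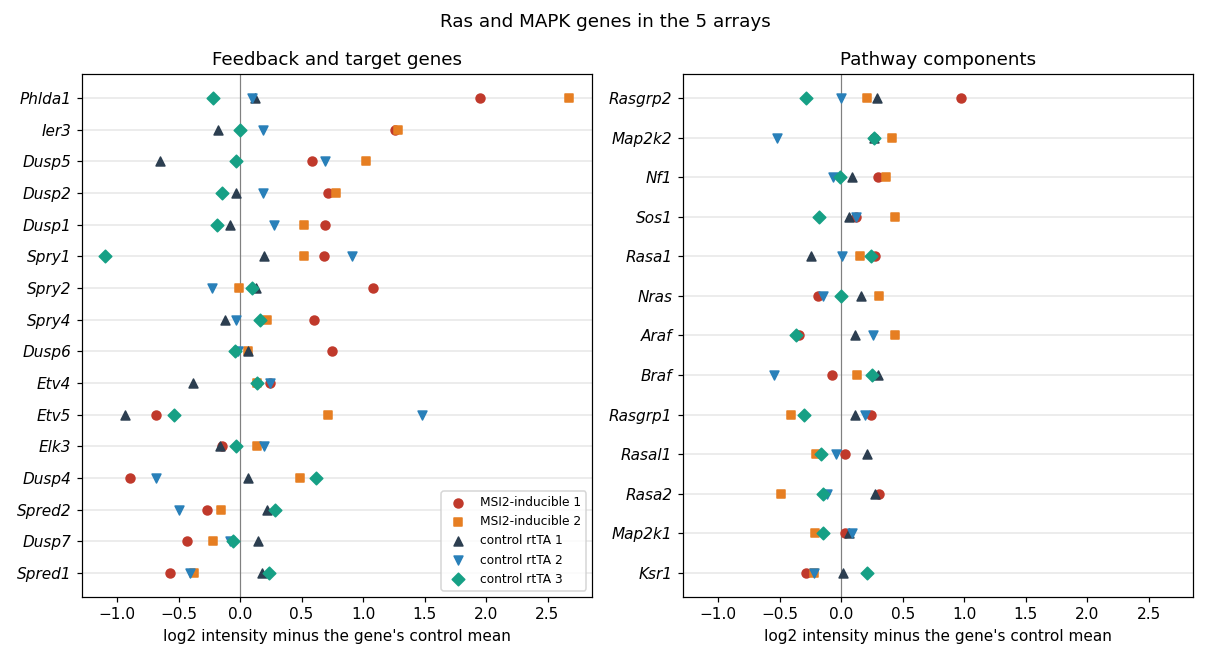
Log2 intensity of each measured gene in each of the 5 arrays, minus the gene's mean over the control arrays (x axis, the same in both panels), for 16 feedback and target genes (left) and 13 components (right), ordered by their difference. For Phlda1 and Ier3 both MSI2-inducible points lie more than 1 unit to the right of the control mean, and the component points of the genotypes overlap except for Nf1.

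Phlda1 and Ier3 had the largest differences of all members. Phlda1 encodes a pleckstrin homology-like protein that growth factor and ERK signalling induce. It lay at 6.69 and 7.42 in the MSI2-inducible arrays, against 4.87, 4.84 and 4.52 in the control rtTA arrays. Both MSI2-inducible values were above all control values, and the control values were below 5.57, where sizes are uncertain. The difference was 2.31 (SE 0.27, 95% interval 1.65 to 2.97), with an unadjusted limma p of 0.000147 and an adjusted p of 0.179. With 1 array left out it ranged between 1.95 and 2.68.

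Ier3 encodes a small stress-inducible protein that prolongs ERK activity and affects cell survival. It lay at 10.49 and 10.51 in the MSI2-inducible arrays, against 9.05, 9.41 and 9.22 in the control arrays. The MSI2-inducible arrays were nearly equal and clear of every control array. The difference was 1.27 (SE 0.18, 95% interval 0.82 to 1.72), a 2.41-fold difference in intensity, with an adjusted limma p of 0.279. Left-out arrays gave 1.18 to 1.36. Phlda1 and Ier3 each had 1 probe set, so no second reading of either transcript was at hand.

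The MAPK phosphatases remove phosphate from active MAP kinases and are a main arm of the feedback. Of the 6 measured, 4 were above 0 and 2 below, with a median difference of 0.50. Without overlap 3 lay higher and 1 lower, against 9.27% and 9.39% of all genes. Dusp2, an inducible nuclear phosphatase of blood cells, lay at 8.75 and 8.81 in MSI2-inducible arrays, against 7.998, 8.21 and 7.88 in control arrays. The groups did not overlap, and the difference was 0.75 (SE 0.18, 95% interval 0.30 to 1.19) with an adjusted limma p of 0.679. Dusp1, a nuclear phosphatase of p38, JNK and ERK and a classic early response gene, lay at 12.55 and 12.38, against 11.77, 12.13 and 11.67 in control arrays. Its difference was 0.60 (SE 0.21, 95% interval 0.09 to 1.11, adjusted limma p 0.870), and control replicate 2 came nearest to the MSI2-inducible arrays.

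Dusp5, a nuclear phosphatase specific for ERK, differed by 0.81 but with a wide spread. It lay at 7.66 and 8.10 in MSI2-inducible arrays, against 6.42, 7.76 and 7.04 in control arrays, so control replicate 2 was above MSI2-inducible replicate 1 (95% interval -0.19 to 1.80). Dusp6, the cytoplasmic ERK phosphatase often used as a readout of ERK activity, lay at 10.50 and 9.82, against 9.82, 9.74 and 9.71 in control arrays. Only MSI2-inducible replicate 1 stood out, since MSI2-inducible replicate 2 was level with control replicate 1 to 2 decimals. Dusp6 is still counted among the genes without overlap. The difference was 0.41 (SE 0.24), and 0.06 without MSI2-inducible replicate 1.

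The 2 phosphatases below 0 were Dusp7 and Dusp4. Dusp7, another cytoplasmic ERK phosphatase, lay at 6.49 and 6.70 in MSI2-inducible arrays, against 7.07, 6.84 and 6.87 in control arrays. The groups did not overlap, the difference was -0.33 (95% interval -0.77 to 0.11, adjusted limma p 0.912), and all 3 of its probe sets were below 0. Dusp4, a nuclear phosphatase, varied as much within groups as between them, at 6.59 and 7.97 against 7.55, 6.80 and 8.10 in control arrays. Its difference of -0.20 turned to 0.49 without MSI2-inducible replicate 1.

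Promoter sequence before the annotated start is shown for the genes above that reached an unadjusted p under 0.05 and have an entry (Phlda1 has none), and for Nf1, the 1 component whose arrays did not overlap. Each window holds 250 bases before the start from RefSeq (GRCm38.p6), read in the direction of the gene. Capitals mark matches to any of 5 searched motifs: the cyclic AMP response element (TGACGTCA, or its shorter core TGACG), AP-1 (TGANTCA), an ETS core (CCGGAA), the CArG box bound by serum response factor, and an NF-kappaB site. The shorter core is part of the full element, and every motif was searched on both strands. The Ier3 window is chr17:35821463-35821712 on the plus strand, that of Dusp1 is chr17:26508473-26508722 on the minus strand, that of Dusp2 is chr2:127335909-127336158 on the plus strand, and that of Nf1 is chr11:79339642-79339891 on the plus strand.
Ier3: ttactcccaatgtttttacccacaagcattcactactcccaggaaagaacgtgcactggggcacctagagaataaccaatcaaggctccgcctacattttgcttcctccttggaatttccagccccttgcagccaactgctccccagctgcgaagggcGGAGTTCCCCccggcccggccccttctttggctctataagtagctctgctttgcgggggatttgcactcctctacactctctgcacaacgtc
Dusp1: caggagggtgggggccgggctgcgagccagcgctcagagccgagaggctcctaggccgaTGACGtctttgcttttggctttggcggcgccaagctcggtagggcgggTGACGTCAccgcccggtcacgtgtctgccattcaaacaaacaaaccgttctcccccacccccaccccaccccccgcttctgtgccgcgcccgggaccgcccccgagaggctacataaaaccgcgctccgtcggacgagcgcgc
Dusp2: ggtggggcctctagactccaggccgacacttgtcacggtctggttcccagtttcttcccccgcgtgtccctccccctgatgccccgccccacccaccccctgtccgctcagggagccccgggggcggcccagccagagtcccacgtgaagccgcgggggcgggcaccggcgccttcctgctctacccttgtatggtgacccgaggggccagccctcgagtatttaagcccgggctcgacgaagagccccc
Nf1: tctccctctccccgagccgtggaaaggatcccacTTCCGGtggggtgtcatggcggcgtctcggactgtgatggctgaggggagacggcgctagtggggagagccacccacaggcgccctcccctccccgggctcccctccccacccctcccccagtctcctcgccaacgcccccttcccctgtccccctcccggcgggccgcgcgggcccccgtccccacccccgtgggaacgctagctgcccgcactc

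In the Ier3 window the match is an NF-kappaB site that begins 92 bases before the start, a motif found in 3.90% of all 32851 windows of the same length. The Dusp1 window holds 1 full cyclic AMP response element, 143 bases before the start, and a further TGACG core 191 bases before it. The full element was found in 1.55% of all windows and the shorter core in 17.8%. Dusp2 had no match, which says only that these letters are not in its window. The Nf1 match is an ETS core 216 bases before the start.

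Across the members, ETS cores lay on the component side. At least 1 was present for 7 of 13 components with an entry (Araf, Hras, Map2k1, Nf1, Rasa1, Rasgrp2 and Sos1) and for 0 of 12 feedback and target genes with one, against 12.0% of all windows. These 13 components include Hras, which had no expression value, and leave out Rasal1, which has no entry. Member counts are of genes, and Rasgrp2, Ksr1 and Etv5 have more than 1 window each, while the percentages are of windows. CArG boxes were found before Dusp5 alone, which had 2, at 82 and 72 bases before the start, against 1.47% of all windows. AP-1 was found before 1 component, Ksr1, and before 0 feedback genes, against 6.75% of all windows. Full cyclic AMP elements lay before Dusp1 and Braf, and NF-kappaB sites before Ier3 and Rasgrp2. A match is a run of letters, not a shown binding site, and counts over the members carry no test.

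Sprouty and Spred proteins bind near receptors and Ras and block the step to Raf. The 3 Sprouty genes were above 0 and the 2 Spred genes below. Spry1 lay at 6.25 and 6.09 in MSI2-inducible arrays, against 5.76, 6.48 and 4.47 in control arrays, a difference of 0.60 that control replicate 3 sets (0.05 without that array). Spry2 lay at 8.65 and 7.56, against 7.70, 7.34 and 7.67 in control arrays. Only MSI2-inducible replicate 1 was high for Spry2, where the difference was 0.53 and turned to -0.01 without it. Spry4, at 5.23 and 4.85 against 4.51, 4.597 and 4.79 in control arrays, did not overlap (difference 0.41, 95% interval -0.09 to 0.91), but all 5 values were below 5.57 and 2 of its 4 probe sets were below 0. Its difference was 0.22 without MSI2-inducible replicate 1 and 0.05 with the mean of its probe sets.

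Spred1, which brings the GTPase activating protein neurofibromin to the membrane, was the member lowest in MSI2-inducible cells. It lay at 9.11 and 9.30, against 9.86, 9.27 and 9.91 in control arrays. Control replicate 2 fell between the MSI2-inducible arrays, and the difference was -0.47 (SE 0.25, 95% interval -1.09 to 0.15, adjusted limma p 0.912). Of its 8 probe sets, 7 were below 0. Spred2 differed by -0.21, with both MSI2-inducible arrays, 8.91 and 9.03, inside the control range of 8.68 to 9.46.

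The ETS factors, transcription factors at the end of the pathway, showed no difference beyond their spread in the probe sets used. Etv4 differed by 0.19, at values below 5.57, and Elk3, a ternary complex factor, by -0.00 (95% interval -0.49 to 0.48). All 4 Elk3 probe sets were below 0, from -1.79 to -0.00, and the mean of its probe sets gave -0.62. Etv5 had the widest spread of all members, at 7.78 and 9.18 in MSI2-inducible arrays, against 7.52, 9.94 and 7.93 in control arrays. Its difference of 0.02 had a wide 95% interval of -1.94 to 1.97, so these arrays fixed neither its size nor its direction.

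Among Ras and its exchange factors, 4 of 5 genes were measured and the median difference was 0.17. Nras, a Ras GTPase often mutated in myeloid leukaemia, lay at 9.90 and 10.40 in MSI2-inducible arrays, against 10.25, 9.94 and 10.09 in control arrays. The groups overlapped fully, and the difference was 0.05 (95% interval -0.49 to 0.60). Rasgrp2, an exchange factor that answers to calcium and diacylglycerol and acts chiefly on Rap1, had the largest difference of the components. It lay at 9.90 and 9.13, against 9.21, 8.92 and 8.63 in control arrays, with MSI2-inducible replicate 2 inside the control range. Its difference was 0.59 (SE 0.30, 95% interval -0.15 to 1.33, adjusted limma p 0.911), and 0.21 without MSI2-inducible replicate 1. Sos1, the exchange factor that receptors recruit, differed by 0.28 (95% interval -0.21 to 0.76), and its 5 probe sets ranged between -0.44 and 0.80. Rasgrp1 was dim on every array and differed by -0.09.

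GTPase activating proteins end the Ras signal. Nf1, which encodes neurofibromin, was the component whose arrays did not overlap, at 6.57 and 6.64 in MSI2-inducible arrays, against 6.35, 6.20 and 6.26 in control arrays. The difference was 0.33 (SE 0.16, 95% interval -0.07 to 0.73, adjusted limma p 0.911), and its other 2 probe sets differed by -0.80 and 0.63 (0.05 as the mean of its probe sets). Rasa1, which binds phosphorylated receptors, differed by 0.21, Rasa2 by -0.09 and Rasal1 by -0.09, each with overlapping arrays.

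The kinases and their scaffold differed by less than the spread between arrays, with a median difference of 0.03 over 5 genes and none without overlap. Map2k1 and Map2k2 encode the MEK kinases. Map2k2 lay at 8.60 and 8.75 in MSI2-inducible arrays, against 8.60, 7.81 and 8.60 in control arrays, and its difference of 0.34 was 0.08 without control replicate 2. Map2k1 differed by -0.09 (95% interval -0.54 to 0.36). The Raf kinases Braf and Araf differed by 0.03 (95% interval -0.71 to 0.77) and 0.04 (-0.73 to 0.82). Braf lay lowest in control replicate 2, at 8.85, against 9.32 and 9.52 in MSI2-inducible arrays and 9.69 and 9.64 in the other control arrays. Ksr1, which holds Raf, MEK and ERK together, differed by -0.25 (95% interval -0.73 to 0.23). The lower ends of the 5 intervals lay between -0.73 (Ksr1) and -0.38 (Map2k2), and the upper ends between 0.23 (Ksr1) and 1.05 (Map2k2). All 5 spanned 0, and these arrays fixed the size of the differences only loosely.

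**Figure D2:**
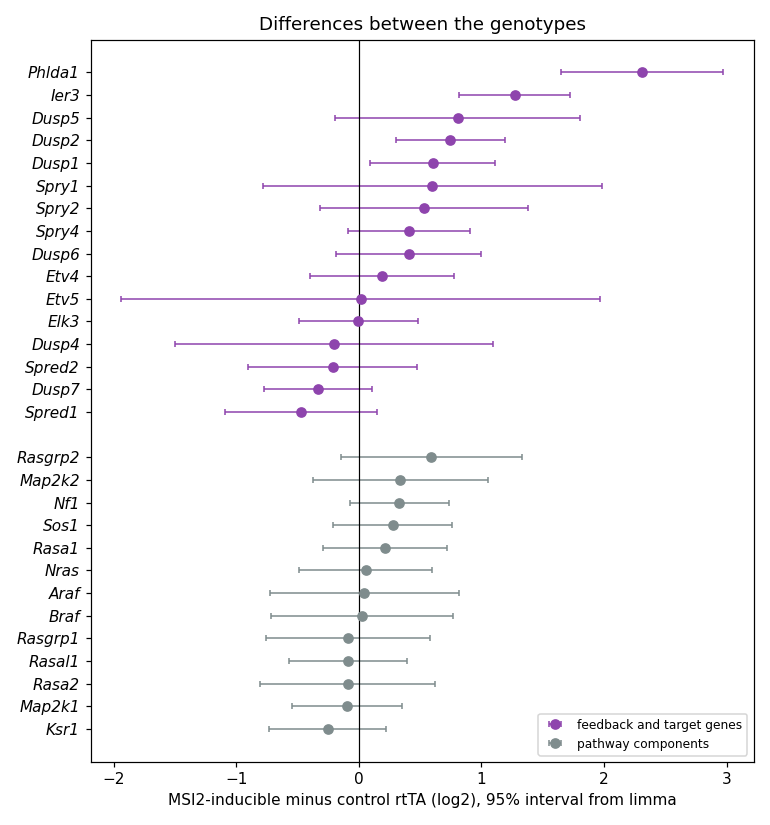
Difference of the group means for each of the 29 measured members (x axis, log2, MSI2-inducible minus control rtTA), with 95% intervals from limma, feedback and target genes above and components below. The intervals of Phlda1, Ier3, Dusp2 and Dusp1 lie wholly above 0 before adjustment, and every component interval spans 0.

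Probe sets of one gene often disagreed. The 29 members were read by 84 probe sets, and of 19 genes with more than 1, 7 had differences of one sign throughout: Rasgrp1, Rasa2, Map2k2, Dusp7, Spry2, Etv4 and Elk3. Braf had 6 probe sets above 0 and 3 below, with a range of -0.34 to 0.64. Phlda1, Ier3, Dusp1, Dusp2, Dusp4, Dusp5, Dusp6 and Spry1 had 1 probe set each, so the feedback genes with the largest differences could not be checked this way. Counted by probe set and not by gene, the median difference of the feedback and target genes was -0.01, since Spred1, Spred2 and Elk3 then carry 17 of the 39 probe sets. It was 0.29 with the mean of each gene's probe sets.

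**Figure D3:**
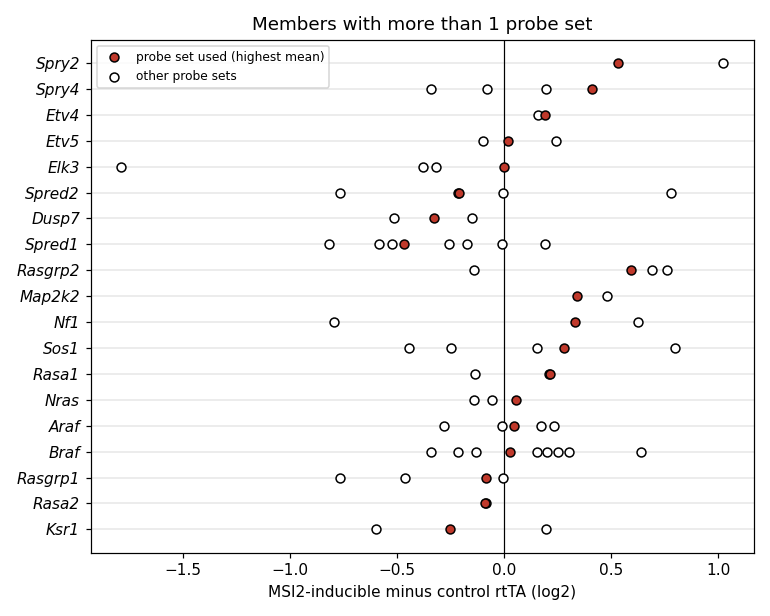
Difference of every probe set (x axis, log2, MSI2-inducible minus control rtTA) for the 19 members that have more than 1, with the probe set used as a filled point. Spry2 and Map2k2 lie above 0 throughout, Dusp7 lies below 0 throughout, and Nf1 spans -0.80 to 0.63.

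Further genes of the pathway were taken from 2 lists of textbook members. Of 35 upstream and core genes, 29 were measured, with a median difference of -0.04, and 0 had an adjusted or an unadjusted limma p under 0.05. Both MSI2-inducible arrays lay above every control array for 2 of them, Rras2 and Shoc2, against 9.27% of all genes. Both lay below every control array for 7, against 9.39% of all genes. Shoc2, a scaffold that helps activate Raf, lay at 10.25 and 10.09 against 9.54, 10.01 and 9.92 in control arrays. Rasa3, a GTPase activating protein of Ras and Rap1, lay at 9.07 and 9.48 against 9.62, 9.60 and 9.65 in control arrays (difference -0.34, adjusted limma p 0.912). Rps6ka5, a kinase downstream of ERK and p38, differed by -0.79 and the adaptor Gab1 by -0.30. Both were lowest in MSI2-inducible replicate 1. Rps6ka5 lay at 7.34 and 8.39 against 8.46, 8.74 and 8.77 in control arrays. Gab1 lay at 6.64 and 7.03 against 7.05, 7.15 and 7.20.

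Of 25 further feedback and target genes, 24 were measured, with a median difference of 0.14. Relative to the control mean, the list median was 0.25 in MSI2-inducible replicate 1 but 0.0053 in replicate 2. In the control arrays it was 0.02, 0.05 and -0.04, so replicate 2 lay inside the control range. None of the 24 genes passed after adjustment, while 3 were higher and 1 lower at an unadjusted limma p under 0.05, against 2.87% and 2.77% of all genes. Without overlap 7 lay higher and 3 lower, against 9.27% and 9.39% of all genes. Maff, a small Maf transcription factor, differed by 1.99 (9.20 and 8.70 against 6.94, 7.27 and 6.68 in control arrays, adjusted limma p 0.219). The early response factors Egr1 and Fos differed by 1.04 and 0.71, with both MSI2-inducible arrays above control replicate 2, the highest control array. Ccnd1, the cyclin that ERK induces for entry into the cell cycle, went the other way, at 8.83 and 8.62 against 9.40, 9.41 and 9.11 in control arrays (difference -0.58, adjusted limma p 0.870). Dusp16, a phosphatase of JNK and p38, differed by -0.48 and Fosl2 by -0.35, both without overlap. Dusp16 lay at 6.75 and 7.32 against 7.57, 7.63 and 7.33 in control arrays, so MSI2-inducible replicate 2 was barely below control replicate 3. Myc differed by 0.05.

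Immediate early and heat shock genes, which sorting and handling of cells also induce, moved with the feedback genes. Of 21 such genes outside the members, all measured, 20 were above 0, against 50.4% of all genes. Without overlap 16 lay higher, against 9.27%, and 13 were higher at an unadjusted limma p under 0.05, against 2.87%. Egr1, Fos and Ier2 are also among the further feedback and target genes above, so the 2 lists are not separate. The sums and medians that follow are of the immediate early and heat shock genes. Their summed intensity was 50221 and 43898 in MSI2-inducible arrays, against 24122, 34552 and 23576 in control arrays. Relative to the control mean, MSI2-inducible replicates 1 and 2 had list medians of 1.04 and 0.66, against -0.18, 0.39 and -0.22 for the 3 control arrays in order of replicate. For the feedback and target genes the same medians were 0.59 and 0.35, against 0.02, 0.14 and -0.03. Control replicate 2 was the highest control array in both lists, and the part of handling in the feedback result was not tested. In MSI2-inducible replicates 1 and 2 the components had 0.12 and 0.15, against 0.11, -0.04 and -0.15 in control arrays.

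Markers of other cells differed both within the MSI2-inducible group and between the genotypes, and none passed after adjustment. The summed intensity of 10 measured neutrophil markers was 63583 and 11802 in MSI2-inducible replicates 1 and 2, against 14303 to 26847 in control arrays, so control arrays lay between them. That of 8 measured erythroid markers was 8359 and 3829, against 2434 to 3897, with 7 genes above 0 and Epor (1.16, adjusted limma p 0.616) and Car1 (1.24, adjusted limma p 0.870) higher without overlap. The sum of 5 measured megakaryocyte markers was lower in both MSI2-inducible arrays, at 827 and 1040, against 1538 to 1878 in control arrays. Its median difference was -0.93, and Pf4 (-1.38, adjusted limma p 0.616) and Vwf (-0.95, adjusted limma p 0.461) lay lower without overlap. Among the markers of T and NK cells, B cells, macrophages and mast cells, only Ccl5 did not overlap (1.56, adjusted limma p 0.508). Spry2, Dusp6 and Rasgrp2 were high in the same MSI2-inducible replicate 1 and near the control arrays in replicate 2. Phlda1, Ier3 and Dusp2 were as high or higher in replicate 2 as in replicate 1, while Dusp1 was higher in replicate 1 (12.55 against 12.38). The megakaryocyte sum differed from control in both of these arrays. The part of the cell makeup in the feedback result was not tested for any of these genes. Fewer cells of a type and less RNA per cell cannot be told apart in such bulk samples. RNA quality, as the 3' minus 5' signal of Gapdh, was 2.22 in both MSI2-inducible arrays, against 2.14, 2.60 and 2.40 in control arrays (exact permutation p = 0.4, two-sided, where 0.1 is the smallest possible). For beta-actin the difference was 0.03 (exact permutation p = 0.8).

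**Figure D4:**
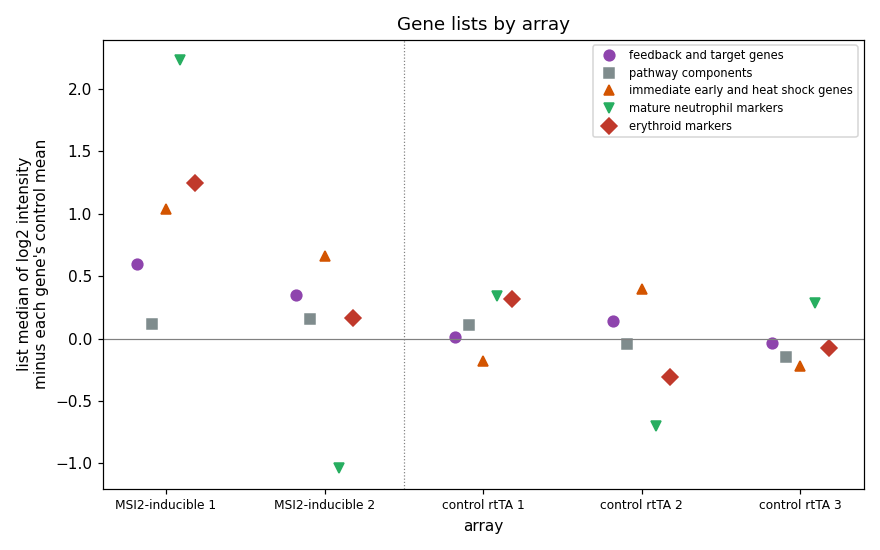
Median over the genes of 5 lists of the log2 intensity minus each gene's control mean (y axis) in each array (x axis), with points of an array set slightly apart for legibility. Feedback and target genes and immediate early genes are highest in the 2 MSI2-inducible arrays and next in control replicate 2, while neutrophil markers are high in MSI2-inducible replicate 1 (2.23) and low in MSI2-inducible replicate 2 (-1.04).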

How the data were processed

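Expression was measured on 5 arrays, 2 MSI2-inducible and 3 control rtTA. The deposited values are intensities of 45101 probe sets on a linear scale, normalized by the authors. The submitters' processing notes name RMA, affy and R 2.11.0, and how the values returned to linear units is not given in the sources. Their log2 was taken with no pseudocount. By the platform annotation, 34945 probe sets had 1 symbol and 932 had several. Symbols outside the members were updated by Entrez ID through RefSeq (GRCm38.p6), where 34741 matched. The test was limma 3.58.1 under R 4.3.3 (lmFit, eBayes, genotype alone as a term), two-sided, with Benjamini-Hochberg adjustment over all genes; the fit was tested on simulated data first. Intervals are unadjusted 95% intervals. The members and lists were chosen with earlier results of these data known, and other pathway genes were named by smallest p without overlap. Detection calls were not used here, and the number of arrays limits precision. Promoters came from RefSeq tables, which have entries for 13 components and 12 feedback genes. Alternatives covered the value per gene, low values, normalization, pseudocount, array weights, the variance model, a replicate block, left-out arrays and the threshold.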

Additional observations from a re-analysis of the deposited data

How the results depend on the processing

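Under every alternative run, 0 members passed after adjustment, also at an adjusted p of 0.10. Members higher at an unadjusted limma p under 0.05 numbered 4, and 3 to 7 with an array left out; lower ones numbered 0, and 0 to 2. Members higher without overlap numbered 7, and 8 to 12 with any of the arrays removed, since fewer arrays make overlap rarer. Lower ones numbered 1, 1 to 5 with any of the arrays removed, 2 for averaged probe sets or arrays centred on their medians, 3 with quantile normalization, 6 when every probe set counts, and 0 without _x_at and _s_at probe sets. With an array removed, 13.3% to 31.9% of all genes lay higher without overlap and 14.2% to 26.4% lower. With all 5 arrays these shares were 9.27% and 9.39%. The feedback median of 0.41 ranged between 0.32 and 0.59 with an array left out and was -0.0113 by probe set; the component median of 0.04 ranged between 0.0108 and 0.15. Over all genes, 3 were higher and 1 lower; left-out arrays gave 0 in each direction, the replicate block 0 and 0, a pseudocount of 16 gave 1 and 0, array weights 1 higher, and low values left out or quantile normalization 2 lower, against 3 lower at 0.10. Further pathway genes numbered 3 higher and 1 lower at an unadjusted p under 0.05 (alternatives added after seeing the data): 5 and 2 by probe set, 3 lower with the mean of probe sets, 2 lower with a pseudocount of 16 or the replicate block, and 1 to 4 higher and 0 to 5 lower with an array left out.

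Some members changed sign, and the cause was not tested. They were mainly members near 0, but also Spry2 (0.53) and Dusp4 (-0.20). With the mean of probe sets Nras gave -0.0486, with array weights Braf -0.10 and Elk3 0.0420, and with centred arrays Elk3 0.0155. With the replicate block Araf gave -0.14, Dusp4 0.10 and Etv5 -0.25; Etv5 gave -0.10 without _x_at and _s_at probe sets and -0.000245 with quantile normalization. Over left-out arrays the ranges were -0.19 to 0.30 for Nras, -0.41 to 0.24 for Rasgrp1, -0.49 to 0.31 for Rasa2, -0.21 to 0.0270 for Rasal1, -0.22 to 0.0289 for Map2k1, -0.25 to 0.18 for Braf, -0.35 to 0.44 for Araf, -0.90 to 0.49 for Dusp4, -0.0130 to 1.08 for Spry2, -0.68 to 0.75 for Etv5 and -0.14 to 0.14 for Elk3. A lone MSI2-inducible array was taken to have the spread of the controls. Nothing in the labels pairs equal replicate numbers, and the deviations of same-numbered arrays correlated at 0.134 and 0.0990. Signal near the floor limits Spry4, Etv4, Rasgrp1, Rasal1 and the control values of Phlda1.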
